A study of Bos taurus with 8 samples.

Results

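The miRNAs described here are miR-103, miR-107 and the miR-378 family in rumen fluid of cattle. They were chosen by name, as the 6 entries bta-miR-103, bta-miR-107, bta-miR-378, bta-miR-378b, bta-miR-378c and bta-miR-378d among the 565 miRNA entries that the tables of 8 libraries list. Of these 6, 5 were listed in at least 1 library, 4 were listed in all 8, and 1, bta-miR-378b, was listed in none. The tables start at 2 reads, so an unlisted entry had at most 1 read. The 4 entries bta-miR-103, bta-miR-107, bta-miR-378 and bta-miR-378c reached 10 reads in a library and entered the test of diet, whereas bta-miR-378d did not.

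Rumen fluid came from 4 non-lactating Holstein cows with a rumen cannula, aged 10 ± 1.5 years. Each cow was sampled on day 7 of a forage diet with 0% concentrate and again, after concentrate had been raised in steps over a week, on day 1 at the 65% concentrate of the high-grain (HG) diet, both 4 h after the morning meal. Small RNA was sequenced as 4 libraries per diet, and libraries of 1 replicate number were treated as a pair from 1 cow, which the sources used here do not state. All cows received forage first, so diet and sampling time cannot be told apart, and the sources used here name no step that separates cells or vesicles from the fluid.

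A miRNA is a short RNA that guides the Argonaute complex to messenger RNAs, mostly through its seed, the bases next to its 5′ end. miR-103 and miR-107 are close paralogues that lie in introns of the pantothenate kinase genes, whose enzymes start the synthesis of coenzyme A, and they are known for lowering insulin sensitivity through caveolin-1 in liver and fat. miR-378 lies in PPARGC1B, which encodes the coactivator PGC-1β of mitochondrial and lipid metabolism, and it is known for restraining oxidative metabolism and for its rise as fat cells mature. Rumen papillae absorb and metabolise short-chain fatty acids, and an HG diet raises the supply of these acids.

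In the deposited tables bta-miR-103 lay on chromosome 13 of UMD3.1 from 51742469 to 51742491 on the minus strand in 6 libraries, and on chromosome 20 from 189902 to 189924 on the minus strand in 2. Both are copies of the same mature miRNA, and the tables name 1 of them per library. Bta-miR-107 lay on chromosome 26 from 11288043 to 11288064 on the minus strand. Bta-miR-378 was placed at its copy on chromosome 4, from 10715305 to 10715326 on the plus strand, in all 8 libraries. The opposite arm of the hairpin, listed as hsa-miR-378a-5p, was placed on chromosome 7 from 63067305 to 63067326 on the plus strand. Bta-miR-378c lay on chromosome 24 from 31729559 to 31729579, and bta-miR-378d on chromosome 19 from 8714936 to 8714957, both on the minus strand.

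The host genes were looked up by name in a RefSeq gene table (ARS-UCD2.0), whose coordinates are not given here because the build differs. It places MIR103-1 inside PANK3, MIR103-2 inside PANK2, MIR107 inside PANK1 and MIR378-1 inside PPARGC1B. The other members do not share these hosts. MIR378-2 lies inside CALCR, the calcitonin receptor gene, MIR378C inside ZNF521, a zinc finger gene, and MIR378D inside MSI2, which encodes an RNA-binding protein. MIR378B lies between THY1 and NECTIN1 and inside no listed gene. A host in a PANK gene or in PPARGC1B therefore holds for bta-miR-103, bta-miR-107 and 1 of the 2 loci of bta-miR-378, and not for bta-miR-378b, bta-miR-378c or bta-miR-378d. The table gives gene bounds without exons.

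Libraries held 331864 to 522804 miRNA reads on the forage diet and 300116 to 390774 on the HG diet. Levels are given below as reads per 1000000 miRNA reads (RPM) of the same library, with a read that maps to several entries counted in full at each, and as mean ± SD. Intervals for single libraries are 95% Wilson intervals and reflect counting error alone, because PCR copies of a molecule are counted as reads. HG replicate 2 stood apart from the other 7 libraries. Of the 377 entries with at least 10 reads in a library, 101 (26.8%) were higher in it than in every other library, and 186 (49.3%) were lower. On the RPM scale 1 of the 4 members tested was higher and 3 were lower. After TMM normalization, described below, HG replicate 2 was the highest library for bta-miR-103 and bta-miR-378 and the lowest for bta-miR-107, while bta-miR-378c, with 75.7 CPM, lay within the 68.8 to 116 CPM of the others. The diet test of the members is given with and without this library.

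A read spans a whole miRNA, so levels were compared between entries with no correction for length. The order of the levels was the same in every library: bta-miR-103 was highest, followed by bta-miR-378, bta-miR-107, bta-miR-378c and bta-miR-378d. The ranges of the members over the 8 libraries did not overlap. In HG replicate 2 bta-miR-103 had 10100 RPM and bta-miR-378 had 7996 RPM. This step was smaller than the spread of bta-miR-378 between libraries, 4143 to 7996 RPM. By total reads over the 8 libraries bta-miR-103 ranked 17 among the bovine entries with 36473 reads, bta-miR-378 ranked 39 with 14931, bta-miR-107 ranked 99 with 2670, bta-miR-378c ranked 151 with 424, and bta-miR-378d ranked 294 with 17.

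Over all 8 libraries bta-miR-103 was the most even of the family relative to its level. Within the forage diet the values of bta-miR-107 lay closer together than its counting error, with an interval of 768 to 968 RPM in forage replicate 4. The evenness of these miRNAs within forage can therefore not be ranked. Bta-miR-103 had 11648, 11456, 11367 and 11261 RPM in forage replicates 1 to 4 and 11606, 10100, 11631 and 11296 RPM in HG replicates 1 to 4. The diets overlapped, and HG replicate 2 was the lowest library. The mean was 11433 ± 164 RPM on the forage diet and 11158 ± 722 RPM on the HG diet (SD, n = 4 each), which is 1.14% and 1.12% of the miRNA reads. Its place in HG replicate 2 depended on the scaling. After TMM normalization, which corrects for a few abundant miRNAs that take up reads, HG replicate 2 had the highest level of bta-miR-103 of all 8 libraries, with 7555 CPM against 7299 to 7513 CPM in the others.

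Bta-miR-378 had 4211, 4267, 4164 and 4384 RPM in forage replicates 1 to 4 and 4342, 7996, 4143 and 4264 RPM in HG replicates 1 to 4. The 7 libraries other than HG replicate 2 lay within 4143 to 4384 RPM and did not separate by diet. HG replicate 2 reached 1.88 times their mean of 4254 ± 88.7 RPM (SD, n = 7), with an interval of 7701 to 8303 RPM. The diet means were 4257 ± 95.0 RPM on forage and 5186 ± 1875 RPM on HG (SD, n = 4 each), and the SD on the HG diet came from this library. After TMM normalization it remained the highest library, with 5982 CPM against 2673 to 2842 CPM. Relative to all reads, of which miRNA reads made up 6.67% to 29.3%, it was not the highest: bta-miR-378 had 690 reads per 1000000 there and 293 to 1234 in the others, with diet means of 737 ± 386 on forage and 657 ± 358 on HG (SD, n = 4 each).

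Bta-miR-107 had 858, 844, 853 and 862 RPM in forage replicates 1 to 4 and 906, 595, 798 and 892 RPM in HG replicates 1 to 4. HG replicate 2 was again outside the range of the other 7 libraries, here below it, with an interval of 518 to 683 RPM. HG replicates 1 and 4 lay above all forage libraries and HG replicates 2 and 3 below them. The intervals of HG replicates 1 (805 to 1021 RPM), 3 (715 to 892 RPM) and 4 (802 to 990 RPM) each held all forage values. Counting error alone could thus place these libraries on either side. The mean was 854 ± 7.91 RPM on forage and 798 ± 143 RPM on HG (SD, n = 4 each). After TMM normalization HG replicate 2 remained lowest, with 445 CPM against 515 to 587 CPM.

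The minor members had few reads. Bta-miR-378c, listed in all libraries with 34 to 81 reads, had 133 ± 31.6 RPM on forage and 131 ± 26.0 RPM on HG (SD, n = 4 each). Its lowest library was HG replicate 2 with 101 RPM, but the interval of 72.4 to 141 RPM reached into the values of other libraries. Bta-miR-378d had 2, 2, 3 and 2 reads in forage replicates 1 to 4 and 4, 2 and 2 reads in HG replicates 1, 3 and 4, and was not listed in HG replicate 2. At this depth no difference in bta-miR-378d was detectable.

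**Figure D1:**
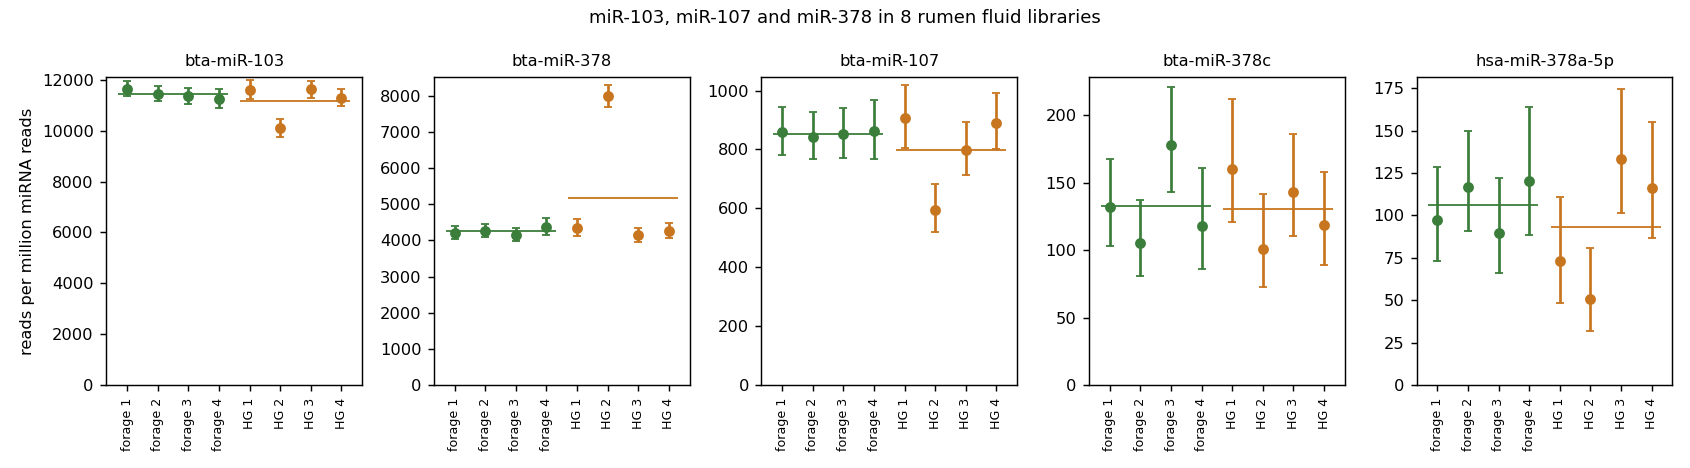
Level of each miRNA entry in the 8 libraries, in RPM of miRNA reads on linear axes that start at 0 (green: forage; orange: HG). Points are libraries, bars are 95% Wilson intervals and horizontal lines are diet means. Bta-miR-378 reached 7996 RPM in HG replicate 2 and 4143 to 4384 RPM elsewhere, while bta-miR-103, bta-miR-107, bta-miR-378c and hsa-miR-378a-5p had their lowest value in that library.

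Both arms of the miR-378 hairpin were sequenced. The arm listed as bta-miR-378 is the 3p arm, and hsa-miR-378a-5p, which has no separate bovine entry among those listed, is the 5p arm. The 5p arm had 326 reads in all against 14931 of the 3p arm. It had 97.1, 117, 89.9 and 121 RPM in forage replicates 1 to 4 and 73.3, 50.6, 133 and 116 RPM in HG replicates 1 to 4, so the diets overlapped. HG replicate 2 was the lowest library for the 5p arm, with 17 reads and an interval of 31.6 to 81.0 RPM, and the highest for the 3p arm. Per 100 reads of the 3p arm there were 0.632 reads of the 5p arm in HG replicate 2 and 1.69 to 3.21 in the other libraries. The 5p reads mapped to a single place, whereas the 3p reads mapped to several, and the tables place the arms on different chromosomes, so their reads need not come from the same locus. For miR-103 the opposite arm, hsa-miR-103a-2-5p, was listed in forage replicate 3 alone, with 2 reads.

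Ratios between members do not depend on how a library is scaled. Per 100 reads of bta-miR-103 there were 7.37, 7.36, 7.50 and 7.65 reads of bta-miR-107 in forage replicates 1 to 4, and 7.81, 5.89, 6.86 and 7.89 in HG replicates 1 to 4. The forage libraries were thus close together and the HG libraries lay on both sides of them, with means of 7.47 ± 0.138 and 7.11 ± 0.939 (SD, n = 4 each). The counting intervals of bta-miR-107 overlapped among all libraries but HG replicate 2, and none was worked out for the ratio. The reads of bta-miR-378 per 100 of bta-miR-103 were 36.2, 37.3, 36.6 and 38.9 in forage replicates 1 to 4, and 37.4, 79.2, 35.6 and 37.8 in HG replicates 1 to 4. Apart from HG replicate 2, in which bta-miR-378 came to 79.2 reads per 100, the ratio lay between 35.6 and 38.9. Bta-miR-378c did not follow bta-miR-378: it came to 1.26 reads per 100 of bta-miR-378 in HG replicate 2 and to 2.47 to 4.27 in the others.

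**Figure D2:**
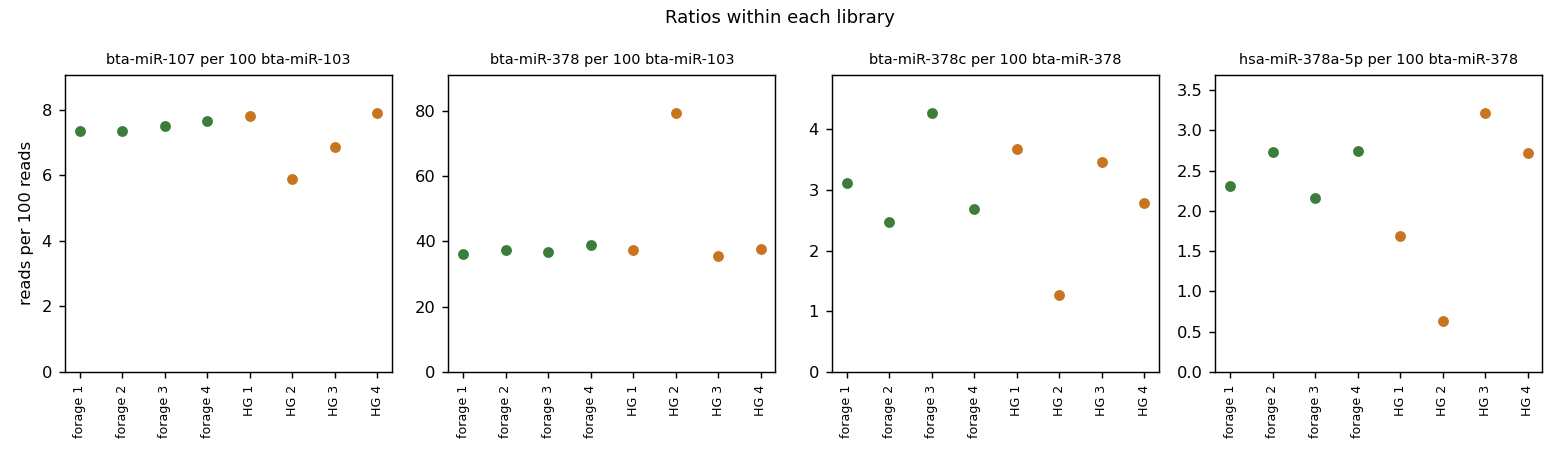
Reads of one miRNA per 100 reads of another in each library (green: forage; orange: HG), on linear axes that start at 0. In HG replicate 2 bta-miR-378 stood at 79.2 per 100 reads of bta-miR-103, the 5p arm at 0.632 and bta-miR-378c at 1.26 per 100 reads of bta-miR-378.

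How far these levels belong to a single miRNA is limited by reads that map to several places. The tables also give each entry a count that divides these reads, and the undivided count over the divided count is given here as the division factor, which is 1 where no read was divided. It was 3.12 for bta-miR-103, 3.89 for bta-miR-378, 4.94 for bta-miR-378c and 6.54 for bta-miR-107, against a median of 2 over the 268 bovine entries with at least 10 reads in a library. Bta-miR-107 was among the entries with the highest factors, since 6 of the 268 had at least its value, itself included.

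The factor is not a number of listed entries. The other entries of the same family that could hold the reads of bta-miR-378 were hsa-miR-378a-3p, with the same 14931 reads in total, bta-miR-378c with 424 and bta-miR-378d with 17, which is too few for 3.89 entries per read. For bta-miR-103 they were hsa-miR-103a-3p with 36470 reads and bta-miR-107 with 2670, too few for 3.12. Several annotated copies of 1 miRNA, of which the tables name 1, thus appear to be counted in the division as well, and the factor gives no share of reads that belong to a member alone. Hsa-miR-378a-3p equalled bta-miR-378 in 8 of 8 libraries. Hsa-miR-103a-3p equalled bta-miR-103 in 6 of 8 and differed by at most 2 reads in the others. miR-103 and miR-107 are near-identical in sequence, and the tables do not name the places that share a read, so reads of bta-miR-107 may be reads of bta-miR-103.

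By divided reads bta-miR-103 came to 11702 over the 8 libraries and ranked 35 among the bovine entries, bta-miR-378 came to 3834 and ranked 63, bta-miR-107 came to 408 and ranked 140, and bta-miR-378c came to 85.9 and ranked 208. The order among these 4 was the same as by undivided reads. The division factor of bta-miR-107 was 6.44 to 6.63 in the single libraries, with 6.63 in HG replicate 2. For bta-miR-378c it was 4.05 in HG replicate 2, where it had 34 reads, and from 5 to 5.07 in the others.

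**Figure D3:**
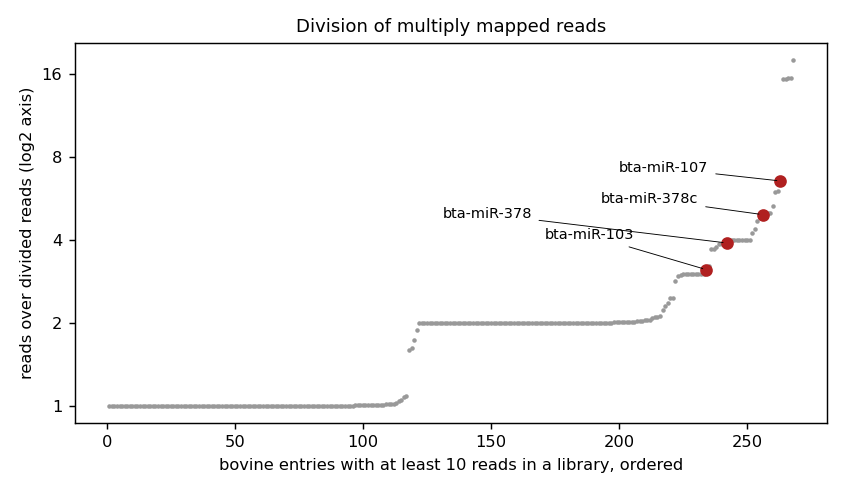
Division factor (reads over divided reads) of the 268 bovine entries with at least 10 reads in a library, ordered from low to high on a log2 axis. Red points mark bta-miR-103 (3.12), bta-miR-378 (3.89), bta-miR-378c (4.94) and bta-miR-107 (6.54), all above the median of 2.

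The members also differed in the number of distinct read sequences, which counts length and base variants of the mature miRNA together with sequencing errors. Bta-miR-103 had 42 to 70 distinct sequences per library, bta-miR-378 had 24 to 39, bta-miR-107 had 13 to 25, bta-miR-378c had 2 to 4 and bta-miR-378d had 1 where it was listed. HG replicate 2 had the fewest for bta-miR-103 (42), bta-miR-107 (13) and bta-miR-378 (24), and the fewest entries listed in all, 413 against 418 to 463, although bta-miR-378 had more reads there than in any other library, 2688 against 1303 to 2231.

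The question of the design was whether the change from forage to HG feeding alters these miRNAs in the fluid. In the test across all 377 entries (quasi-likelihood test of edgeR, cow, taken from the replicate number, and diet as terms, TMM normalization, two-sided, Benjamini-Hochberg adjustment), 0 entries (0%) had an adjusted p under 0.05, and 9 (2.39%) had an unadjusted p under 0.05. DESeq2 also called 0 entries, with 3 at an unadjusted p under 0.05. Of the 4 members tested, 0 passed at either level.

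For bta-miR-103 the log2 fold change was 0.01 (standard error 0.04, 95% interval −0.08 to 0.10, edgeR adjusted p = 0.920), from 7418 ± 91.5 to 7483 ± 84.7 CPM (TMM-normalized, SD, n = 4 each). It was higher on the HG diet in 4 of 4 pairs on this scale, but the difference was below the SD between libraries, and its sign turned when no TMM factor was used (−0.02). Of the 377 entries, 356 had a log2 fold change of at least this size.

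Bta-miR-378 had a log2 fold change of 0.27 (standard error 0.21, 95% interval −0.24 to 0.79, edgeR adjusted p = 0.788), from 2762 ± 65.6 to 3561 ± 1615 CPM (SD, n = 4 each), and was higher in 2 of 4 pairs. Without replicate 2 the log2 fold change was −0.00033 (standard error 0.03, 95% interval −0.07 to 0.07). Bta-miR-107 had a log2 fold change of −0.07 (standard error 0.09, 95% interval −0.30 to 0.16, edgeR adjusted p = 0.830), from 554 ± 3.32 to 532 ± 66.4 CPM (SD, n = 4 each), and was higher in 2 of 4 pairs. Without replicate 2 it was 0.0098 (standard error 0.07, 95% interval −0.14 to 0.16). The fold of each of these miRNAs between diets thus rested on HG replicate 2.

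For bta-miR-378c the interval was wider, −0.37 to 0.42 on the log2 scale, from 86.3 ± 20.6 to 87.2 ± 13.3 CPM (SD, n = 4 each). Its edgeR p was 0.980 (adjusted 0.996), larger than the standard error of 0.16 behind this interval would give. DESeq2 gave a standard error of 0.35, so the interval may be too narrow. The sign of the log2 fold change of 0.03 turned when no TMM factor was used and without replicate 2 (−0.03). For the 5p arm hsa-miR-378a-5p the log2 fold change was −0.19 (standard error 0.28, 95% interval −0.88 to 0.50, edgeR adjusted p = 0.840), or 0.09 without replicate 2. A p above the threshold does not show that the diets were alike. The interval of bta-miR-103 was the narrowest among the members with all 8 libraries. Without replicate 2 it narrowed to −0.03 to 0.05, around a log2 fold change of 0.01. It widened to −0.16 to 0.16 without replicate 4, −0.15 to 0.16 without replicate 3 and −0.14 to 0.10 with no TMM factor. Without replicate 2 the test of 361 entries called 2 (0.554%), bta-miR-2285ak-5p and bta-miR-2285bh, both lower on HG, and no member. These entries had equal counts, 88 reads in forage replicate 1 and none listed in any other library, so the 2 calls rest on 1 library and may be the same reads.

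**Figure D4:**
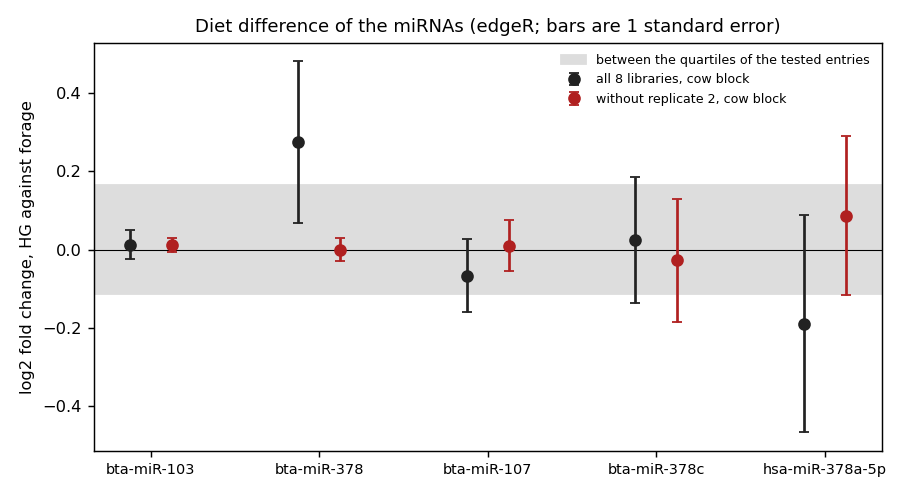
Log2 fold change of HG against forage (edgeR, cow as a block) with all 8 libraries (black) and without replicate 2 (red), with bars of 1 standard error. The grey band spans the quartiles of the log2 fold changes of all 377 tested entries, −0.11 to 0.17. Bta-miR-378 moved from 0.27 to −0.00033 when replicate 2 was left out.

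Other miRNAs tied to lipid, glucose or mitochondrial metabolism were set beside the members. Of a list of 20, 17 were listed and 16 were tested, and 0 passed in either direction. The log2 fold changes were above 0 for 13 and below 0 for 3, with a median of 0.17 against 0.03 for all 377 entries. Without replicate 2 the median was 0.05 over 14 tested members, against 0.0046 for all entries. Bta-miR-27b, which acts on lipid metabolism and fat cell formation, had 19879 ± 210 RPM on forage and 22364 ± 4471 RPM on HG (SD, n = 4 each). HG replicate 2 had 29061 RPM of it and the other HG libraries 19953 to 20448 RPM, close to the forage mean. Bta-miR-210, which is induced by low oxygen and acts on mitochondrial respiration, had 66.4 ± 16.7 and 91.8 ± 33.8 RPM (SD, n = 4 each), with 140 RPM in HG replicate 2 and 64.0 to 90.2 RPM in the other HG libraries. Bta-miR-375, which is abundant in pancreatic islets, had 707 ± 81.9 and 612 ± 120 RPM (SD, n = 4 each), with 437 RPM in HG replicate 2 and 636 to 711 RPM in the other HG libraries. Bta-miR-455-5p, which is tied to brown fat, had 28 reads in HG replicate 2 and at most 6 in any other library. The other arm of its hairpin, bta-miR-455-3p, was lowest there on the RPM scale, with 65.4 RPM against 74.6 to 125 RPM. This rests on 22 reads there against 23 to 57 in the others. In HG replicate 2, 10 of the 16 were higher than in every other library and 5 lower, against 26.8% and 49.3% of all entries tested.

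The miR-15 and miR-16 group was listed as a second comparison, because its seeds overlap in sequence with those of miR-103 and miR-107. All 8 members were listed and tested, and 0 passed in either direction. The median log2 fold change was −0.06, with 1 above 0 and 7 below, and without replicate 2 it was −0.03. Its summed level was 60000 to 62806 RPM in the other 7 libraries and 47157 RPM in HG replicate 2, in which 6 of the 8 were at their lowest on the RPM scale, as were 49.3% of all entries tested.

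By the root mean square difference of centred log2 CPM over the 8 libraries, among 149 bovine entries with a mean of at least 50 reads, the entries nearest to bta-miR-103 were bta-miR-186 (0.0220), bta-miR-92a (0.0221) and bta-miR-140 (0.0243), against a median of 0.148 for all 149. Bta-miR-103 itself varied by 0.0161 about its mean, less than any of these distances, so a constant level would lie nearer to it than the named entries. Nearest to bta-miR-107 were bta-miR-9-5p (0.0451), bta-miR-30b-5p (0.0579) and bta-miR-486 (0.0583), against a median of 0.184. Nearest to bta-miR-378 were bta-miR-199a-5p (0.0654), bta-miR-31 (0.0673) and bta-miR-199b (0.0723), against a median of 0.356. Since HG replicate 2 holds most of the variation of bta-miR-378 and bta-miR-107, the choice by distance also fixed the side on which their nearest entries lay in it. Bta-miR-31, a miRNA of squamous epithelium, had 3246 RPM in it and 1487 to 1682 RPM in the others, and bta-miR-199a-5p, a miRNA of fibroblasts and other stromal cells, had 919 RPM and 427 to 500 RPM. Bta-miR-486, a miRNA of red blood cells, had 20889 RPM in it and 28431 to 29569 RPM in the others.

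Markers of other cell types differed in HG replicate 2 as well. The smooth muscle and stroma list (6 of 6 listed) summed to 65569 to 68335 RPM on forage and 65644 to 90744 RPM on HG, with the highest value in HG replicate 2, where 4 of its 6 members exceeded every other library. The epithelium list (7 of 8 listed, bta-miR-203 not listed) summed to 22355 to 22637 RPM on forage and 22054 to 31200 RPM on HG, also highest in HG replicate 2. On the RPM scale 5 of 7 members were above every other library there and 1, bta-miR-200b, below (1892 RPM against 2006 to 2189 RPM). Of all entries tested, 26.8% were above every other library there and 49.3% below. These lists and the metabolic list (55900 RPM against 41733 to 43600 RPM in the others) were high in HG replicate 2, the library where bta-miR-378 was high.

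The erythrocyte list (3 of 3 listed) summed to 202018 to 206066 RPM on forage and 149756 to 201656 RPM on HG, and the leukocyte list (6 of 6 listed) to 22908 to 23323 and 18655 to 23047 RPM. The striated muscle list (5 of 7 listed, bta-miR-208a and bta-miR-208b not listed) summed to 6441 to 7280 RPM on forage and 5007 to 7617 RPM on HG. Bta-miR-122, the marker of liver, had 2114 to 2423 and 1562 to 2662 RPM. These 4 summed levels were lowest in HG replicate 2, as were bta-miR-107 and, on the RPM scale alone, bta-miR-103. Single members went the other way: bta-miR-142-3p (1238 RPM) and bta-miR-146a (1455 RPM) of the 6 leukocyte markers and bta-miR-499 (357 RPM) of the 3 striated muscle markers tested were at their highest in this library. Their part in the levels of the members was not tested, and in whole fluid fewer cells of a type and less of a miRNA per cell cannot be told apart.

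**Figure D5:**
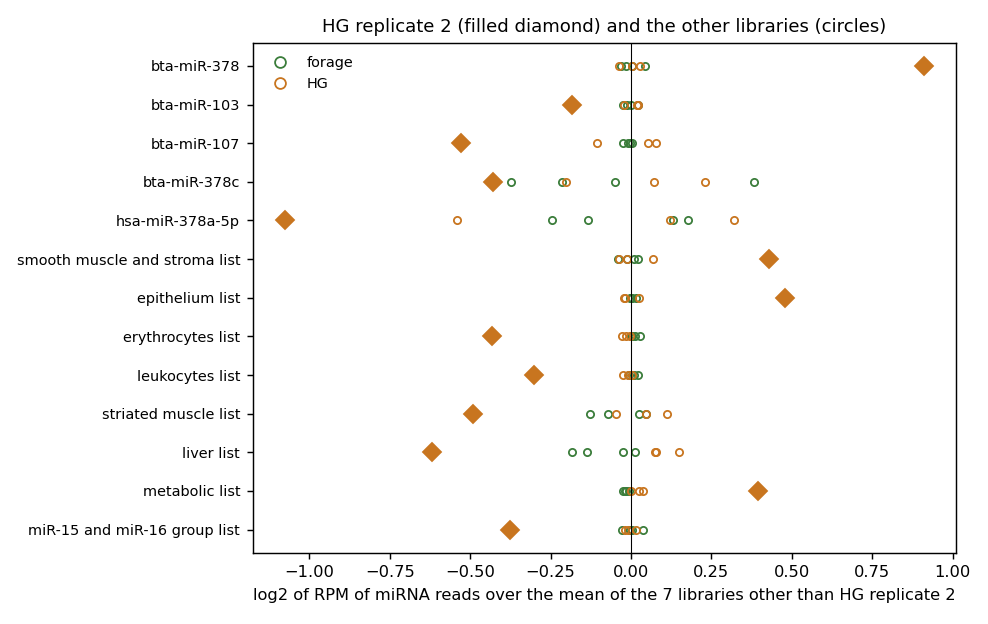
Log2 of the level (RPM of miRNA reads) in each library over the mean of the 7 libraries other than HG replicate 2, for the members, the 5p arm and the summed lists (green: forage; orange: HG; filled diamond: HG replicate 2). HG replicate 2 stood at 0.91 for bta-miR-378, on the same side as the smooth muscle and stroma, epithelium and metabolic lists. It stood at −0.53 for bta-miR-107, on the same side as all other rows: bta-miR-103, bta-miR-378c, the 5p arm and the erythrocyte, leukocyte, striated muscle, liver and miR-15 and miR-16 lists.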

How the data were processed

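The authors trimmed adapters with Skewer, discarded short and low-quality reads, and assigned reads to bovine and human entries of miRBase with sRNAbench and Bowtie on UMD3.1. The deposited tables give, per library, read counts (shared reads in full at each entry), distinct read sequences, an expected count (reads divided by the places they map to) and RPM of all reads. The total of miRNA reads in a library was worked out from another deposited column, a score on the scale of RPM. The authors' normalized signal equalled the rounded divided reads over DESeq2 size factors for 7 entries of the family in 8 of 8 libraries, within 1%.

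Read counts of entries that reached 10 reads in any library were tested with edgeR 4.0.16 (TMM, glmQLFit, glmQLFTest, cow + diet) in R 4.3.3, and with DESeq2 1.42.0 as an alternative. The standard error is the log2 fold change over the root of the F statistic. Other steps used Python 3.11.15, numpy 2.4.6, pandas 2.3.3, scipy 1.17.1 and matplotlib 3.10.9. The same cows were sampled on both diets, and libraries of 1 number were paired as 1 cow, although neither the labels nor the methods say that the number is the cow. Their deviations from the diet means correlated across entries at −0.0864 to 0.0488, so the data do not show the pairing. The members and lists were chosen with earlier results of these data known. Named are the members, entries of the same miRNAs, some miRNAs of the lists, the entries called without replicate 2, and the 3 nearest patterns per member (prior count 2). Entries sharing a member's seed were to be left out of these, but no sequences were used here and they were left out by name alone.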

Additional observations from a re-analysis of the deposited data

Results flagged for a closer look

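In HG replicate 2 bta-miR-378 had 7996 RPM of miRNA reads, and its gap to the next HG library was 0.948 of the range of the 4 HG libraries. Its ratio to bta-miR-103 stood apart in the same library, at 79.2 reads per 100, with a gap of 0.951 of the range. Both exceed Dixon's 95% critical value of 0.829 for 4 samples. In all, 20 groups of values were examined, of which chance would set apart about 1 in 20, and the 2 values found rest on the same reads of bta-miR-378. Bta-miR-103 (0.781) and bta-miR-107 (0.653), at their lowest in the same library, did not reach the critical value. The markers that were high in HG replicate 2 are given with the results, and their part was not tested.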

How the results depend on the processing

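No alternative brought a member past the threshold, and the edgeR or DESeq2 adjusted p of bta-miR-378 was 0.678 to 0.999 over its 12 alternatives. Without the replicate block its log2 fold change was 0.36, and 0 entries were called (7 at an unadjusted p under 0.05), so the block changed no call. Leaving out 1 replicate number gave 0 to 2 called entries, and log2 fold changes of −0.125 to 0.0098 for bta-miR-107, −0.00033 to 0.369 for bta-miR-378, −0.070 to 0.147 for bta-miR-378c and −0.471 to 0.087 for hsa-miR-378a-5p. The sign of bta-miR-107, bta-miR-378 and hsa-miR-378a-5p turned without replicate 2, and that of bta-miR-378c without replicate 1 or 2. With neither block nor HG replicate 2, an alternative chosen after seeing the data, the values were 0.0087, −0.0097 and 0.048 for bta-miR-107, bta-miR-378 and hsa-miR-378a-5p. The sign of bta-miR-103 turned with at least 10 reads in every library (−0.0023), with divided reads (−0.0082) and with no TMM factor (−0.018), and with no TMM factor bta-miR-378c came to −0.0028. The cause was not tested. With divided reads, bta-miR-107 per 100 reads of bta-miR-103 was 3.59 on forage and 3.36 on HG, and bta-miR-378 was 29.8 on forage and 38.0 on HG. Depth limits bta-miR-378c (34 to 81 reads per library) and bta-miR-378d (at most 4). Replicates are 1 library per cow and diet.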
